A study of Mus musculus with 36 samples.

Results

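Dendritic cells (DCs) measured without sorting were set beside the fractions sorted from the same cultures by the surface antigen thrombomodulin (TM, CD141). The arrays were chosen by experiment and treatment and not by any measured value, though earlier results of these data were known. They comprise 18 of the 36 arrays of the series: 6 of unsorted DCs, 6 of TM- DCs and 6 of TM+ DCs. Every culture was started with marrow cells of Balb/c mice aged 10 to 12 weeks, was given 100 ng/ml of the growth factor GM-CSF and was harvested on day 6. There were 3 such cultures: an untreated culture (experiment 3) and the cultures of experiments 2 and 3 that received 200 nM sTM, the soluble extracellular part of recombinant human TM, from day 4. Each culture gave 2 arrays of unsorted, 2 of TM- and 2 of TM+ DCs. The labels call these pairs biological replicates without saying whether they were separate cultures or mice, so that p-values measure the spread between arrays, which may be technical. The cells were sorted with a rat antibody against TM and magnetic microbeads that bind rat IgG, to a purity above 93%. The sources used here do not say whether unsorted DCs went through any of these steps.

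GM-CSF cultures of mouse marrow hold DCs at several stages of maturation beside macrophage-like cells, granulocytes and dividing precursors. TM is the endothelial receptor for thrombin, and a subset of DCs carries it too. A mature DC makes interleukin 12 and interleukin 6, carries the costimulatory receptor Cd40 and responds to type I interferon, whereas monocyte-derived cells carry the chemokine receptor Ccr2 and often the mannose receptor Mrc1. Bead sorting takes time, binds antibody to the cells and passes them over a column, and immediate-early and heat shock genes are known to respond to handling of cells. The RNA of a plain mixture is a weighted mean of its parts and lies between them at every gene, within measurement error. In bulk RNA, fewer cells of a type and less RNA per cell cannot be told apart.

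The cells were sorted by surface protein, and the RNA of the sorted antigen did not follow the sort in every culture. Thbd, which encodes TM, was dim on all 18 arrays (5.70 to 6.92 on the log2 scale of the intensity, in which all single-gene values are given). Thbd was 5.70 and 5.99 in unsorted, 5.83 and 6.06 in TM- and 6.66 and 6.92 in TM+ DCs of the untreated culture, so that both TM+ arrays were above the others (difference from unsorted DCs 0.95, adjusted p = 0.00111). The differences of Thbd between TM+ and unsorted DCs were -0.43 (adjusted p = 0.102) and -0.18 (adjusted p = 0.669) in the sTM cultures of experiments 2 and 3. The DC integrin Itgax (CD11c) lay at 11.77 to 12.35 and the invariant chain Cd74 at 11.80 to 12.66 on all arrays, while the growth factor receptor Flt3 was dim (5.61 to 6.83). Over 15 conventional DC markers the summed linear intensity was 19041 to 23577 in unsorted, 17278 to 25304 in TM- and 20654 to 24669 in TM+ DCs, and these ranges overlapped. Markers of T and NK cells summed to 872 to 969, 864 to 1027 and 783 to 1228, and B cell markers to 3986 to 5733, 5196 to 6356 and 2205 to 4896.

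The unsorted profile lay close to the TM- fraction in the untreated culture and farther from it in both sTM cultures. Over 19938 genes the root mean square difference (log2) between group means in the untreated culture was 0.103 from unsorted to TM- DCs, below the 0.146 between its 2 unsorted arrays, and 0.418 from unsorted to TM+ DCs. For experiment 2 the same distances were 0.2999 and 0.425, with 0.343 between the unsorted arrays. Experiment 3 with sTM gave 0.386 to TM- and 0.332 to TM+ DCs, beside 0.383 from fraction to fraction, 0.236 between the unsorted arrays and 0.389 between the TM- arrays. These distances are descriptions across genes, which are not independent replicates.

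A position between the fractions was measured with genes chosen in experiment 4, which has sorted but no unsorted arrays and is not among the 18. There 1318 genes were at least 2-fold higher in TM+ DCs and 667 at least 2-fold higher in TM- DCs, past the test. The position is 0 at the level of TM- DCs and 1 at that of TM+ DCs of the same culture, on linear intensity, as the median over genes for each unsorted array. Both groups of genes gave a low position in the untreated culture, 0.0917 and 0.0606 for the genes of TM+ DCs and 0.0599 and 0.128 for those of TM- DCs, and 76.9% and 69.7% of these genes had their unsorted mean between the fractions. The unsorted arrays of experiment 2 were at 0.0788 and 0.0822 by the genes of TM+ DCs but at 0.544 and 0.505 by those of TM- DCs. With sTM in experiment 3 they were at 0.466 and 0.262 by the genes of TM+ DCs and at 0.999 and 0.997, the level of the TM+ fraction, by those of TM- DCs. The 2 groups of genes thus gave about 1 position in the untreated culture and different positions in the sTM cultures. The unsorted mean lay between the fractions for 50.3% and 59.4% of the genes in experiment 2 and for 51.5% and 32.8% in experiment 3 with sTM. With 2 unsorted arrays a culture, positions were not tested between cultures.

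**Figure D1:**
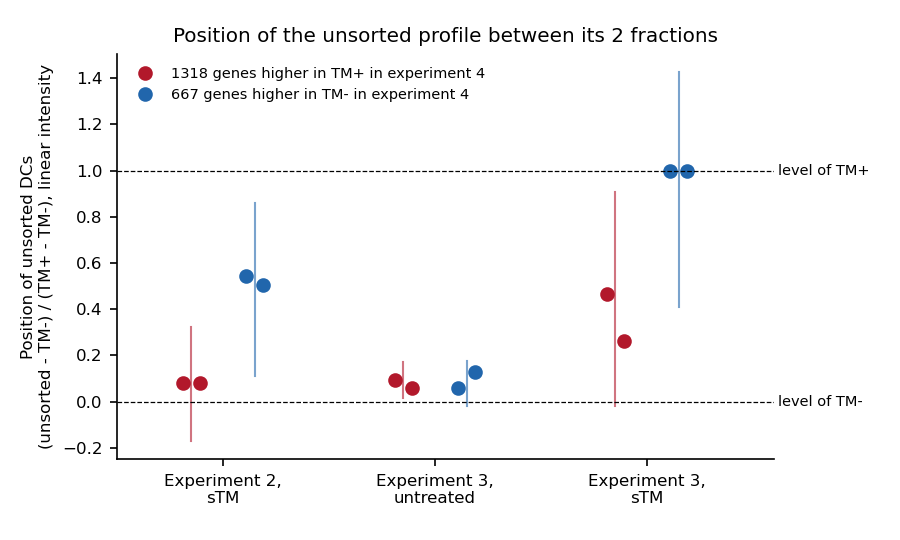
The vertical axis is the position of unsorted DCs (0, level of TM- DCs; 1, level of TM+ DCs), on linear intensity, in each of the 3 cultures. Each point is 1 unsorted array, as the median over the genes chosen in experiment 4, and the lines span the quartiles over genes of the culture mean; both groups of genes sit near 0 in the untreated culture and apart in the sTM cultures.

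Set between the fractions of the untreated culture of the same experiment, the unsorted arrays of the sTM culture of experiment 3 were between for 69.4% and 77.5% of the genes, at positions of 0.279 and 0.526. As a whole profile they differed from unsorted DCs of the untreated culture by 0.243, less than from either fraction of their own culture. The TM+ arrays of the sTM culture of experiment 3 were set beside the 8 other TM+ arrays of experiments 2, 3 and 4. Of all genes 8.48% were above and 5.33% below all 8 on both arrays. No other pair of TM+ arrays was counted in this way. The mean of the TM+ arrays of that sTM culture lay 0.309 from unsorted and 0.361 from TM+ DCs of the untreated culture. Its distance from TM+ DCs of experiment 2 was 0.536, below the 0.5575 between these and TM+ DCs of the untreated culture. Results over the 3 cultures are therefore also given within each, and counts of called genes without each culture stand with the limits at the end.

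Over the 3 cultures, with fraction and culture in the fit, few genes differed between TM- and unsorted DCs. At an adjusted p under 0.05, 2 genes rose (0.01% of the 19938 tested) and 15 fell (0.0752%) in TM- DCs, while 1523 and 883 had an unadjusted p under 0.05. These 17 became 140 or 134 when the first or second unsorted array of the untreated culture was left out, 8 without the first TM- array of experiment 2, 10 without the second TM- array of the sTM culture of experiment 3, and 5 without its first TM- array or any unsorted sTM array. TM+ DCs differed in more genes, of which 1236 rose (6.2%) and 406 fell (2.04%). That split followed the scale of the values, with 811 rises and 873 falls where every array was shifted to a common 75th percentile and 921 and 644 with quantile normalization. The median over all genes of TM+ minus unsorted DCs was -0.02 as deposited and -0.11 after such a shift.

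A small group of genes lay on opposite sides of the unsorted DCs in the fractions, among them receptors of monocytes and macrophages. By the test 12 genes (0.0602% of all genes) rose in TM+ and fell in TM- DCs: Alox15, Arhgap15, Ccr2, Cd300lb, Cd93, Gda, Gna15, Idh1, Ifitm6, Map4k1, Mrc1 and Sort1. Both contrasts share the 6 unsorted arrays, so that an error in those arrays moves both. Its size moved with single arrays. Only Alox15, Ccr2, Gda, Ifitm6 and Mrc1, 5 of the 12, kept both calls without any 1 of the 4 unsorted sTM arrays, and the same genes did without the first TM- array of the sTM culture of experiment 3. Without the first TM- array of experiment 2 6 kept both calls. There were 8 such genes without the second TM- array of the sTM culture of experiment 3, and 9 to 12 with any other array left out. Without the whole of experiment 2 and with the arrays of a pair averaged 0 kept both. There remained 1 (Ccr2) without the sTM culture of experiment 3, 3 (Ccr2, Gda and Mrc1) with array weights and 5 with the replicate block.

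Ccr2, the receptor that brings monocytes out of the marrow, was 7.46 and 7.34 in unsorted, 6.05 and 6.12 in TM- and 10.34 and 10.35 in TM+ DCs of experiment 2. It was 6.64 and 6.85 in unsorted, 6.05 and 5.65 in TM- and 9.65 and 9.60 in TM+ DCs of the untreated culture and 7.53 and 7.19 in unsorted, 5.67 and 5.84 in TM- and 9.42 and 10.05 in TM+ DCs of the sTM culture of experiment 3. The fractions lay on either side of the unsorted arrays with no overlap in any culture. Ccr2 fell by 1.27 in TM- (SE 0.13, adjusted p = 0.000109) and rose by 2.73 in TM+ DCs (SE 0.13, adjusted p = 6.26e-11).

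Mrc1, the mannose receptor (CD206), was 7.73 and 7.30 in unsorted, 6.14 and 6.25 in TM- and 9.90 and 9.98 in TM+ DCs of experiment 2, and its order was the same, with no overlap, in both cultures of experiment 3. Mrc1 differed by -0.94 in TM- (adjusted p = 0.000887) and 2.55 in TM+ DCs (adjusted p = 6.26e-11). Gda, guanine deaminase, was 9.94 and 10.03 in unsorted, 7.80 and 7.79 in TM- and 11.13 and 11.21 in TM+ DCs of experiment 2 (over the cultures -1.49 and 1.54). Alox15, a lipoxygenase that makes lipid mediators, differed by -1.07 and 1.55, and Ifitm6, a membrane protein of the interferon-induced Ifitm family, by -1.55 and 1.21. For Cd93, a receptor of myeloid precursors, the difference was -1.45 in TM- (adjusted p = 0.0171) and 0.92 in TM+ DCs (adjusted p = 0.0221). Its TM+ difference was 2.06 in the untreated culture and 0.42 and 0.27 in the sTM cultures. Of 18 macrophage and monocyte markers, 8 rose and 1 fell in TM+ and 2 fell in TM- DCs, with medians of 0.44 and -0.08 beside -0.02 and 0.02 over all genes. Of all genes 6.2% rose and 2.04% fell in TM+ and 0.0752% fell in TM- DCs.

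Genes of cell division were higher in the TM+ fraction than in unsorted DCs. All 24 cell division genes and 20 of 24 DNA replication genes rose in TM+ against unsorted DCs, with medians of 1.48 and 0.87, beside 6.2% of all genes. None was called in TM- DCs, where only 0.01% of all genes rose and 0.0752% fell. Top2a, the topoisomerase of dividing cells, was 6.66 and 6.00 in unsorted, 6.59 and 6.71 in TM- and 9.22 and 9.05 in TM+ DCs of experiment 2. It was 7.37 and 7.44 in unsorted, 7.24 and 6.87 in TM- and 9.56 and 9.77 in TM+ DCs of the untreated culture and 8.11 and 7.55 in unsorted, 6.93 and 6.81 in TM- and 9.30 and 9.70 in TM+ DCs of the sTM culture of experiment 3. Every TM+ array was above every unsorted array of its culture. The cyclin Ccna2 and the spindle motor Kif11 rose by 2.37 and 2.27 in TM+ DCs. Within the sTM culture of experiment 3, 16 of the 24 cell division genes fell and 1 rose in TM- DCs (median -0.70), beside falls of 837 (4.2%) and rises of 1471 (7.38%) among all genes, against 0 called in the other cultures. The gene that rose, the proliferation marker Mki67, was 10.09 and 9.88 in unsorted, 10.67 and 10.89 in TM- and 11.06 and 11.15 in TM+ DCs and so rose in both fractions.

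Among the largest falls in TM+ DCs, cultures differed in size. Hamp, which encodes the iron regulator hepcidin, was 11.78 and 11.32 in unsorted, 11.70 and 11.76 in TM- and 5.39 and 5.37 in TM+ DCs of the untreated culture. It was 8.69 and 8.91 in unsorted, 11.05 and 11.28 in TM- and 5.02 and 4.89 in TM+ DCs of experiment 2 and 10.60 and 10.81 in unsorted, 10.64 and 9.25 in TM- and 9.60 and 9.73 in TM+ DCs of the sTM culture of experiment 3. TM+ DCs were lowest in the first pair of cultures, and in the last they lay between the TM- arrays. Hamp fell by 3.69 in TM+ DCs over the cultures (SE 0.71, adjusted p = 0.00194). Vnn3, Itm2a, Susd2 and Plpp3 followed, with differences of -2.36, -2.09, -2.01 and -1.91. Susd2, a membrane protein, was 10.95 and 10.96 in unsorted, 11.20 and 11.26 in TM- and 6.38 and 6.24 in TM+ DCs of the untreated culture but 9.93 and 9.91 in unsorted, 11.09 and 11.27 in TM- and 9.91 and 9.99 in TM+ DCs of the sTM culture of experiment 3. In TM- DCs Rapgef5, which activates a small GTPase, fell by 1.09 (adjusted p = 0.0229), and Ttc9 and Gucd1 rose by 0.86 and 0.66.

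**Figure D2:**
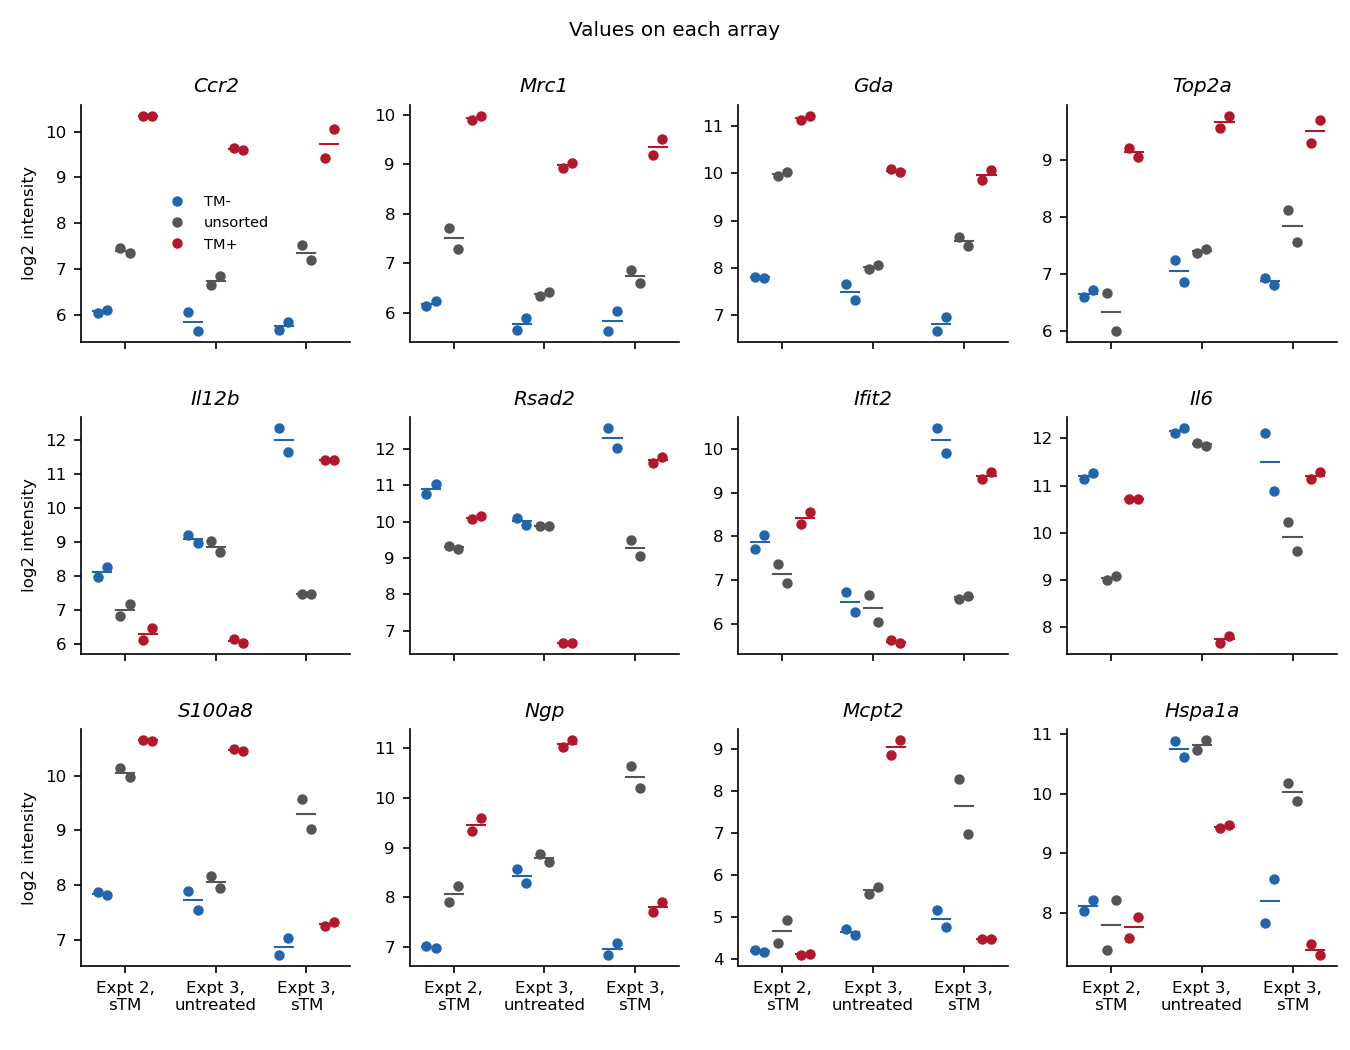
Log2 intensity on each of the 18 arrays for 12 genes, with TM- DCs in blue, unsorted DCs in grey and TM+ DCs in red, and a bar at the mean of each pair. The upper row shows Ccr2, Mrc1 and Gda with unsorted DCs between the fractions of each culture, and the lower rows show genes, such as Il12b and S100a8, for which both fractions of the sTM culture of experiment 3 lie on 1 side of its unsorted arrays.

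Genes changed alike in both fractions by the sorting would differ from unsorted DCs in the same direction in both. The antibody and beads bind cells with TM, so a change from sorting in TM+ DCs alone would not be seen here. Over the 3 cultures no gene rose in both (0.0%) and none fell in both (0.0%) by limma, while 194 and 97 had an unadjusted p under 0.05 in both contrasts with 1 sign. With a separate unsorted array for each contrast the counts were also 0. Where only the spread between paired arrays was counted, leaving out differences between cultures, 157 genes rose and 60 fell in both fractions. Every sorted array was above every unsorted array of its culture for 10 genes (0.0502%) and below for 9 (0.0451%), and none of these 19 passed the test in TM- DCs. Among them Slc1a4, a transporter of neutral amino acids, was 5.99 and 5.89 in unsorted, 6.53 and 6.62 in TM- and 6.98 and 6.75 in TM+ DCs of experiment 2. It was 6.53 and 6.53 in unsorted, 6.64 and 6.59 in TM- and 7.12 and 7.17 in TM+ DCs of the untreated culture and 6.78 and 6.66 in unsorted, 7.03 and 7.52 in TM- and 7.22 and 7.30 in TM+ DCs of the sTM culture of experiment 3. Its difference was 0.42 in TM- (adjusted p = 0.114) and 0.69 in TM+ DCs (adjusted p = 0.00024). The stress protein Niban1 differed by 0.40 (adjusted p = 0.104) and 0.66 (adjusted p = 6.63e-05), and Rragd, a GTPase that signals amino acid supply, by -0.47 (adjusted p = 0.156) and -0.84 (adjusted p = 0.000604). These genes were chosen after their values were seen. How many genes would have all sorted arrays on 1 side without any difference was not estimated, so the 19 are not counted as changed.

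Within single cultures both fractions departed from unsorted DCs together, though not in all 3. These counts were added after the cultures were seen to differ, and the genes named from them were chosen after their values were seen. No gene passed the test between TM- and unsorted DCs of the untreated culture (35 and 68 had an unadjusted p under 0.05), so that none was called in both of its fractions. Its TM+ DCs differed in 1178 rises (5.91%) and 991 falls (4.97%). Experiment 2 had 158 rises (0.792%) and 194 falls (0.973%) in both fractions, and the sTM culture of experiment 3 had 435 rises (2.18%) and 156 falls (0.782%). With a separate unsorted array for each contrast there were 42 and 34 rises and 39 and 30 falls in experiment 2, and 238 and 147 rises and 72 and 62 falls in the sTM culture of experiment 3. All of these fits held 21 rises and 17 falls of experiment 2 and 131 and 53 of experiment 3. Single arrays moved the counts by over 1.5 times. Without the second unsorted array of the sTM culture of experiment 3 there were 154 rises and 75 falls, without its second TM+ array 180 and 99, and without its first TM+ array 96 falls. Experiment 2 had 76 or 63 rises and 117 or 92 falls without its first or second TM- array, and 96 and 112 without its second TM+ array. Leaving out either TM- array of the sTM culture of experiment 3, which differed most within a pair, raised the counts of experiment 2 to 289 and 342, through the spread that all cultures share in the fit.

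**Figure D3:**
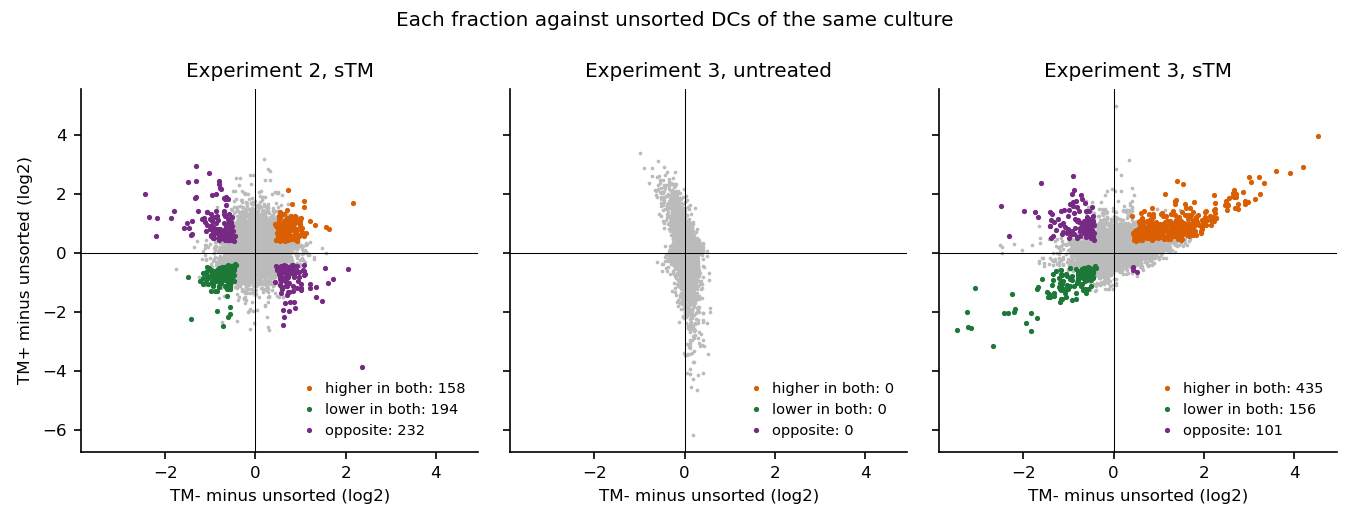
The difference of TM- DCs (horizontal axis) and TM+ DCs (vertical axis) from unsorted DCs of the same culture on the log2 scale, for 19938 genes. Genes called in both contrasts are coloured: 158 rises and 194 falls in both in the sTM culture of experiment 2, none in the untreated culture, and 435 and 156 in the sTM culture of experiment 3. Both axes share the unsorted arrays.

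The sTM cultures had 37 rises in both fractions in common, which is 23.4% of those of experiment 2 and 8.51% of those of experiment 3. Of the falls they shared 7, or 3.61% and 4.49%. Of all genes, 2.18% rose and 0.782% fell in both fractions of the sTM culture of experiment 3, and 0.792% and 0.973% in those of experiment 2. Among the calls that all fits with separate unsorted arrays held, the cultures shared 6 rises and 1 fall. Of the 37, 8 (21.6%) were on a list of 22 interferon-stimulated genes, out of 19938 genes tested: Ifit1, Oas3, Oasl1, Rsad2, Ifih1, Ddx58, Cmpk2 and Gbp3. The 37 also held genes off this list that interferon can induce, such as the guanylate-binding proteins Gbp5 and Gbp7, Parp14 and Herc6. Further members were the cytokine genes Il6 and Il23a, the histamine-making enzyme Hdc, and Slc1a4 and Niban1. In TM+ DCs of the untreated culture 27 of the 37 fell against unsorted DCs and 2 rose, beside 4.97% and 5.91% of all genes. The 7 shared falls were Slc24a3, Sh3bgrl2, Pknox2, Bhlhe41, Flcn, Rragd and Rgs16. Flcn, folliculin, acts on the GTPase family of Rragd, and Bhlhe41 is a repressor of the circadian clock.

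Interferon-stimulated genes were the list with the largest share called in both fractions, of 30 lists. Type I interferon induces these genes, many of which hold an interferon-stimulated response element in their promoters. Of 22 measured members, 16 rose in both fractions of the sTM culture of experiment 3, 11 in those of experiment 2 and 0 in those of the untreated culture, beside 2.18%, 0.792% and 0.0% of all genes. In all fits with separate unsorted arrays 10 of them did in the sTM culture of experiment 3 and 3 in experiment 2 (Oas3, Rsad2 and Cmpk2). Of all 19938 genes 131 and 21 did. The median difference was 0.72 in TM- and 0.67 in TM+ DCs of experiment 2. It was 1.61 and 0.74 in the sTM culture of experiment 3 and 0.10 and -1.47 in the untreated culture. There 20 of the 22 fell in TM+ DCs, beside 4.97% of all genes. Summed over the list, the intensity was 15455 and 15027 in unsorted, 53724 and 45564 in TM- and 27123 and 29053 in TM+ DCs of the sTM culture of experiment 3. It was 18186 and 17446, 19161 and 18402 and 6319 and 6437 in the untreated culture, so that the unsorted arrays of both cultures of experiment 3 were near each other and the TM+ fractions were not.

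Promoters of 3 of these genes are shown because the genes are among the 12 largest rises in both fractions of the sTM culture of experiment 3 and hold the letters of the interferon-stimulated response element (GAAA, any 2 bases, GAAA, or the reverse complement), in capitals. They are RefSeq windows of 300 bases (250 before to 50 after the start) on GRCm38.p6. Ifi214 belongs to the interferon-inducible p200 family, whose near-identical genes may share probes, Ifit3 is an antiviral protein that binds other Ifit proteins, and Rsad2 (viperin) makes an antiviral nucleotide.
Ifi214, chr1:173535908-173536207, minus strand: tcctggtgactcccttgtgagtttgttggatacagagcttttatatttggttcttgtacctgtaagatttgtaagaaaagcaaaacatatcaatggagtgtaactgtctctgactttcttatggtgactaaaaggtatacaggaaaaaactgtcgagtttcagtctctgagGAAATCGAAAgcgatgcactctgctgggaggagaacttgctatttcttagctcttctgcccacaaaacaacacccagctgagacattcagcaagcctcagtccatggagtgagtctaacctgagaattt
Ifit3, chr19:34583279-34583578, plus strand: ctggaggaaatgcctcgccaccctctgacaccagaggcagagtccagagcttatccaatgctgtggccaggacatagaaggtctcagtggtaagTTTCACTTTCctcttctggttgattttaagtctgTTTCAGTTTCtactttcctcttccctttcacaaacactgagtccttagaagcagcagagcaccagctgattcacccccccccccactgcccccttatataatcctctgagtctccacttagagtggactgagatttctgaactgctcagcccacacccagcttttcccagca
Rsad2, chr12:26456403-26456702, minus strand: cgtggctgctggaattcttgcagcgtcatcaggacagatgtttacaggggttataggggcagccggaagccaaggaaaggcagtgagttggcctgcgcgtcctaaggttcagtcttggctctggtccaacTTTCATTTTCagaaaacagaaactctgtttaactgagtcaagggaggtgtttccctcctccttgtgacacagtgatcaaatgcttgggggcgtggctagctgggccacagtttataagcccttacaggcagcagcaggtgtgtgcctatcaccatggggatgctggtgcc

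These letters were in the windows of 17 of the 93 genes with a window (18.3%) among the 131 rises of the sTM culture of experiment 3 that all fits held, in 1 of 40 (2.5%) among its 53 falls, and in 11 of 32 (34.4%) among the 37 shared rises. Of all genes with a window, 607 of 15614 (3.89%) held them. This motif was added after the values were seen. Among the other motifs searched on both strands, AP-1 (TGANTCA) was in 12.9% of the 93 genes against 8.08% of all genes, the cyclic AMP response element (TGACGTCA) in 6.45% against 2.72% and NF-kB in 2.15% against 0.512%. The heat shock element (GAANNTTC) was in 6.45% against 7.94%, the E-box (CACGTG) in 5.38% against 9.5% and the CArG box in 1.07% against 1.63%. A match is a description of letters only. Of the 12 largest rises, Il12b, Ifit2, Itgb8, Ifi209, Cmpk2, Tnfsf15 and Ms4a6c had a window without the letters of the interferon-stimulated response element.

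Ifi214, of the first promoter, was 5.57 and 6.10 in unsorted, 9.97 and 10.10 in TM- and 8.68 and 8.84 in TM+ DCs of the sTM culture of experiment 3 and 5.23 to 6.05 on all arrays of experiment 2. Ifit3, of the second, was 7.67 and 6.71 in unsorted, 11.01 and 9.35 in TM- and 9.66 and 9.88 in TM+ DCs, with the widest spread inside pairs of these genes. Rsad2, of the last, was 9.49 and 9.05 in unsorted, 12.58 and 12.04 in TM- and 11.61 and 11.78 in TM+ DCs. All 3 genes were higher on every sorted than on every unsorted array of that culture, which was a condition for the 12 largest rises.

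Rsad2 was 9.33 and 9.25 in unsorted, 10.77 and 11.05 in TM- and 10.08 and 10.15 in TM+ DCs of experiment 2, again with no overlap. In the untreated culture it was 9.89 and 9.88 in unsorted and 10.09 and 9.92 in TM- DCs but 6.66 and 6.66 in TM+ DCs. Its differences in the sTM culture of experiment 3 were 3.04 (adjusted p = 2.72e-09) and 2.42 (adjusted p = 9.2e-08). On the 8 other TM+ arrays of the series Rsad2 ranged from 6.66 to 10.15, below both TM+ arrays of the sTM culture of experiment 3.

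Ifit2, which inhibits viral translation, was 6.58 and 6.63 in unsorted, 10.49 and 9.92 in TM- and 9.31 and 9.48 in TM+ DCs of the sTM culture of experiment 3. Its unsorted arrays there were near those of the untreated culture, 6.67 and 6.04. Cmpk2, a mitochondrial nucleotide kinase, differed by 3.33 and 2.38 in that culture and by 1.02 and 1.18 in experiment 2. Cxcl10, a chemokine that draws T cells, was 7.82 and 7.66 in unsorted, 10.79 and 10.67 in TM- and 9.45 and 9.52 in TM+ DCs of the sTM culture of experiment 3. For experiment 2 its difference was 0.47 in TM- (adjusted p = 0.0937) and 1.44 in TM+ DCs (adjusted p = 5.9e-06).

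Some genes of DC maturation and some cytokine genes rose in both fractions of the sTM culture of experiment 3. Il12b, the p40 chain shared by interleukins 12 and 23, shifted most: it was 7.47 and 7.47 in unsorted, 12.37 and 11.65 in TM- and 11.44 and 11.43 in TM+ DCs (differences 4.54 and 3.96, adjusted p = 1.3e-10 and 1.71e-09). The 8 other TM+ arrays had Il12b at 5.86 to 6.89. In experiment 2 the fractions parted, with Il12b at 6.83 and 7.17 in unsorted, 7.96 and 8.26 in TM- and 6.12 and 6.47 in TM+ DCs. For the untreated culture it was 9.02 and 8.71 in unsorted, 9.21 and 8.97 in TM- and 6.13 and 6.02 in TM+ DCs, so that TM- DCs stood by the unsorted arrays and TM+ DCs were low.

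Of 19 DC maturation genes, 7 rose in both fractions of the sTM culture of experiment 3: Cd83, Cd40, Il12b, Fscn1, Ccl22, Icosl and Tnfsf4, beside 2.18% of all genes. All of these but Ccl22 and Icosl did so in all fits with separate unsorted arrays. None was called in both fractions of another culture. In TM+ DCs of the untreated culture 16 of the 19 fell, beside 4.97% of all genes. Cd40, the receptor through which T cells license DCs, was 8.52 and 8.51 in unsorted, 11.37 and 11.48 in TM- and 10.12 and 10.26 in TM+ DCs of the sTM culture of experiment 3. Of 20 chemokines 5 rose in both fractions there (Ccl22, Ccl24, Cxcl1, Cxcl10 and Cxcl11), and of 20 inflammatory cytokines 3 did (Il6, Il12b and Il23a). With separate unsorted arrays Cxcl10, Cxcl11, Il12b and Il23a held in all fits. Itgb8, an integrin chain that activates TGF-beta, was 6.37 and 6.14 in unsorted, 10.26 and 10.09 in TM- and 8.82 and 9.11 in TM+ DCs, against 9.14 and 9.24 in unsorted, 9.73 and 9.67 in TM- and 5.82 and 5.72 in TM+ DCs of the untreated culture.

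Il6 was 8.99 and 9.07 in unsorted, 11.14 and 11.27 in TM- and 10.72 and 10.71 in TM+ DCs of experiment 2 (differences 2.17 and 1.68, adjusted p = 0.000123 and 0.000221). It was 10.23 and 9.60 in unsorted, 12.12 and 10.88 in TM- and 11.13 and 11.28 in TM+ DCs of the sTM culture of experiment 3 and 11.91 and 11.84 in unsorted, 12.11 and 12.22 in TM- and 7.66 and 7.81 in TM+ DCs of the untreated culture. Both fractions were above the unsorted arrays in both sTM cultures, and TM+ DCs were far below them in the untreated culture. Treatment and culture cannot be told apart here. Of 19 early NF-kB targets and feedback genes, 4 rose in both fractions of experiment 2 (Nfkbiz, Nfkbie, Birc3 and Sod2) and 1 in the sTM culture of experiment 3 (Cd83), beside 0.792% and 2.18% of all genes. In all fits with separate unsorted arrays Nfkbie and Cd83 held.

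Some granulocyte genes fell in both fractions of the sTM culture of experiment 3. Of 22 granulocyte markers 6 fell in both (Ltf, Ngp, S100a8, S100a9, Cxcr2 and Stfa2), beside 0.782% of all genes, and each did so in all fits with separate unsorted arrays. Summed over the 22, the intensity was 32010 and 29581 in unsorted, 26116 and 22655 in TM- and 27398 and 29476 in TM+ DCs, so that the sum moved less than these 6 genes. S100a8, a calcium-binding protein of neutrophils and monocytes, was 9.57 and 9.03 in unsorted, 6.71 and 7.03 in TM- and 7.25 and 7.31 in TM+ DCs. Ngp, a neutrophil granule protein, was 10.65 and 10.20 in unsorted, 6.84 and 7.08 in TM- and 7.71 and 7.91 in TM+ DCs. Neither gene's sorted arrays overlapped its unsorted arrays, a condition for the largest falls of that culture, from which both were taken.

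S100a8 was not low in TM+ DCs of the other cultures. It was 8.16 and 7.95 in unsorted, 7.89 and 7.55 in TM- and 10.49 and 10.45 in TM+ DCs of the untreated culture and 10.14 and 9.97 in unsorted, 7.87 and 7.81 in TM- and 10.65 and 10.64 in TM+ DCs of experiment 2. On the 8 other TM+ arrays it was 10.45 to 12.37. Mcpt2, a mast cell protease, was 8.31 and 6.99 in unsorted, 5.17 and 4.77 in TM- and 4.48 and 4.48 in TM+ DCs of the sTM culture of experiment 3 but 5.56 and 5.73 in unsorted, 4.73 and 4.58 in TM- and 8.88 and 9.22 in TM+ DCs of the untreated culture, so that TM+ DCs were the lowest in one and the highest in the other. Epx, the eosinophil peroxidase, was 8.98 and 9.07 in unsorted, 7.22 and 7.44 in TM- and 6.76 and 6.87 in TM+ DCs of the sTM culture of experiment 3, and it rose in TM+ DCs of the other cultures by 1.90 and 1.95. Hdc was 9.14 and 9.42 in unsorted, 11.42 and 11.59 in TM- and 10.31 and 10.44 in TM+ DCs of the sTM culture of experiment 3, higher in both fractions. Over 17 markers of eosinophils, mast cells and basophils the summed intensity was 4106 and 4298 in unsorted, 5621 and 6904 in TM- and 3714 and 3832 in TM+ DCs. Of the 17, 1 fell (Epx) and 1 rose (Hdc) in both fractions, beside 0.782% and 2.18% of all genes. The part of granulocytes, eosinophils and mast cells in these results was not tested.

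Genes known to answer handling did not rise in both fractions as groups. Of 33 immediate-early genes none was called in both fractions of experiment 2, beside 0.792% rises and 0.973% falls among all genes. The same held in the untreated culture, where no gene was called in both. In the sTM culture of experiment 3 none rose and 6 fell in both, beside 2.18% and 0.782% of all genes: Fos, Fosb, Jun, Egr1, Egr3 and Sgk1. Of these only Egr1 and Sgk1 fell in all fits with separate unsorted arrays. Egr1, a transcription factor induced within minutes of a stimulus, was 9.96 and 10.30 in unsorted, 8.18 and 8.72 in TM- and 8.92 and 9.04 in TM+ DCs there (differences -1.68 and -1.15). Over the 3 cultures 3 immediate-early genes rose and 10 fell in TM+ DCs, beside 6.2% and 2.04% of all genes. None was called in TM- DCs, where only 0.01% of all genes rose and 0.0752% fell. Within experiment 2, 4 rose and 2 fell in TM- DCs, beside 588 and 536 of all 19938 genes. Within the sTM culture of experiment 3, 6 rose and 9 fell in TM- DCs, beside 1471 and 837 of all genes. The stress-induced factor Atf3 fell by 0.80 in TM+ DCs (adjusted p = 0.0311), with differences of -1.80 in experiment 2, -0.95 in the untreated culture and 0.37 in the sTM culture of experiment 3 (adjusted p = 0.0927).

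Of 18 heat shock chaperones none was called in both fractions of experiment 2, beside 0.973% falls and 0.792% rises among all genes. The same held in the untreated culture, where no gene was called in both. In the sTM culture of experiment 3, 1 fell (Hspa1a) and 1 rose (Dnajb4) in both, beside 0.782% and 2.18% of all genes. Hspa1a, the inducible Hsp70, was 10.18 and 9.87 in unsorted, 7.83 and 8.57 in TM- and 7.47 and 7.28 in TM+ DCs there. It was 7.37 and 8.21 in unsorted, 8.03 and 8.21 in TM- and 7.58 and 7.92 in TM+ DCs of experiment 2, where the groups overlapped, and 10.74 and 10.90 in unsorted, 10.89 and 10.61 in TM- and 9.42 and 9.48 in TM+ DCs of the untreated culture, where TM+ DCs alone were low. Of 16 genes of oxidative stress and metal response 7 fell in TM+ DCs over the cultures and none was called in TM- DCs, and of 25 genes of the integrated stress response 6 rose and 3 fell in TM+ DCs and none was called in TM- DCs. Of all genes 6.2% rose and 2.04% fell in TM+ DCs and only 0.01% and 0.0752% in TM- DCs, which leaves little to see in a short list. Within the sTM culture of experiment 3, 3 genes of oxidative stress rose and 2 fell in TM- DCs, and 3 and 5 of the integrated stress response did. Within experiment 2 these counts were 0 and 0, and 3 and 1. Of the 16 genes of oxidative stress and metal response, 1 rose in both fractions of the sTM culture of experiment 3 (Nqo1, a quinone reductase). The heme oxygenase Hmox1 and metallothionein Mt1, 2 of the 16, fell in both. Of all genes 2.18% rose and 0.782% fell in both there. Mt1 alone of these 3 genes held in all fits with separate unsorted arrays, as did Hspa1a but not Dnajb4. Of 18 cytosolic ribosomal protein genes, 7 fell in TM- DCs of each sTM culture, beside 2.69% of all genes in experiment 2 and 4.2% in experiment 3 (medians -0.47 and -0.47), beside medians of 0.05 and -0.03 in TM+ DCs. Of 12 Fc receptor genes, which bind antibody, 5 rose and 2 fell in TM+ DCs, against the same 6.2% and 2.04%. Fcgr1, the high-affinity IgG receptor, rose in both fractions of the sTM culture of experiment 3, where it was 8.86 and 8.72 in unsorted, 10.68 and 10.19 in TM- and 10.08 and 10.10 in TM+ DCs. Of 18 adhesion genes 4 rose in both fractions there (Itga4, Itgb8, Vcam1 and Cd81), beside 2.18% of all genes, and Itga4, Itgb8 and Vcam1 held in all fits with separate unsorted arrays.

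**Figure D4:**
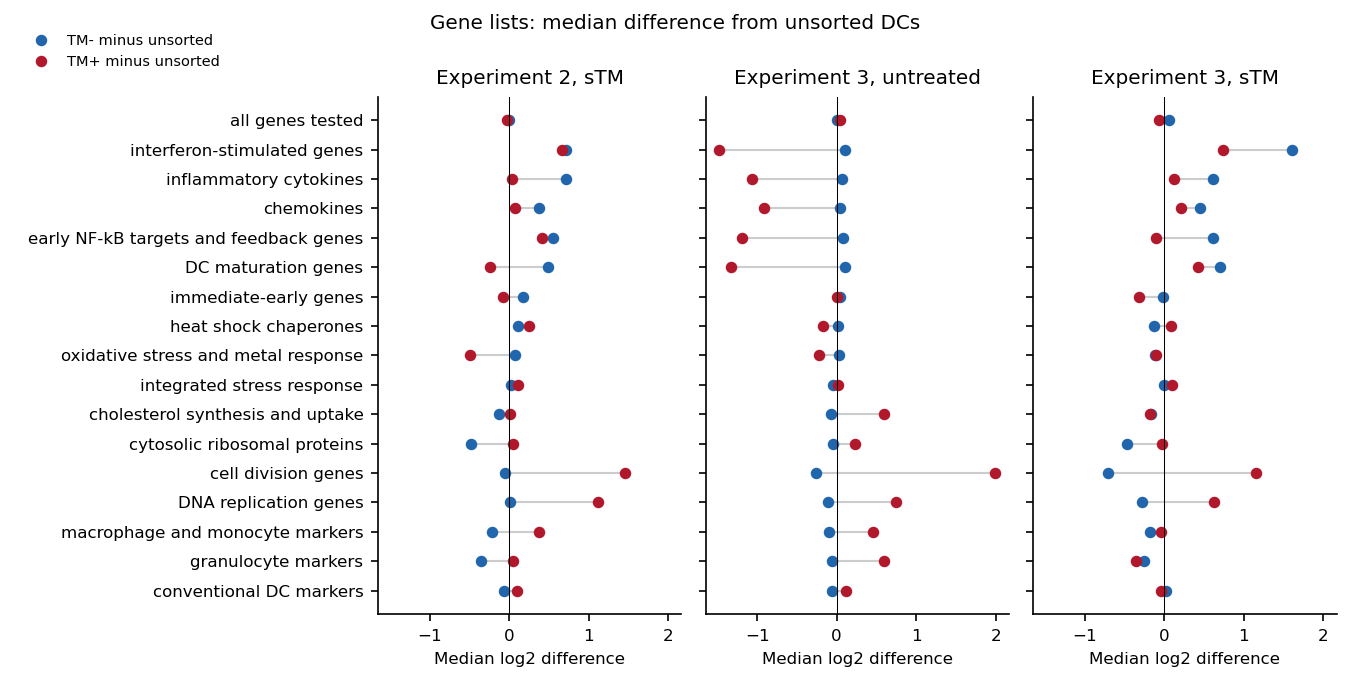
Median log2 difference from unsorted DCs of the same culture over the measured members of 16 gene lists and over all genes, for TM- DCs (blue) and TM+ DCs (red). Interferon-stimulated genes lie right of 0 in both fractions of both sTM cultures and left of 0 in TM+ DCs of the untreated culture, and cell division genes lie right of 0 in TM+ DCs of each culture.

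The falls in both fractions of experiment 2 were of another kind. Of the 194, 115 (59.3%) had a mean below 5.75, the 25th percentile of all genes, and 35 were olfactory or vomeronasal receptors, against 1194 of the 19938 genes (5.99%). Among the 156 falls of the sTM culture of experiment 3 6 were below that level and 1 was such a receptor. The unsorted arrays of experiment 2 correlated with each other at 0.984 over all genes, the lowest of the 3 unsorted pairs. Of the brighter genes Slc40a1, the iron exporter ferroportin, was 10.02 and 9.90 in unsorted, 8.55 and 8.49 in TM- and 7.56 and 7.89 in TM+ DCs of experiment 2 (differences -1.44 and -2.24). On the arrays of experiment 3 it was 6.29 to 7.33. Enc1, an actin-binding protein, was 9.10 and 9.12 in unsorted, 8.11 and 7.98 in TM- and 8.10 and 8.03 in TM+ DCs of experiment 2. Rgs16, which ends G protein signals, fell in both fractions of both sTM cultures, by 0.95 and 1.10 in experiment 2, and by 0.50 in TM- DCs of experiment 3.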

How the data were processed

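RNA of unsorted, TM- and TM+ DCs was hybridised to Affymetrix whole-transcript mouse arrays. The authors normalized the arrays with RMA and deposited linear intensity values, of which log2 was taken here; the sources used here do not say whether this was done on all arrays at once, there are no detection calls, and precision is limited by how many arrays there are. Of 35556 transcript clusters, 21789 had 1 gene symbol, 1621 several and 12146 none; the cluster of highest mean stood for each of the 999 symbols with several, which left 19938 genes, 19856 of them in the RefSeq table. Groups came from the labels. The fit (limma 3.58.1, R 4.3.3, statmod 1.5.0) had fraction and culture as terms (13 residual degrees of freedom), and differences within a culture came from the means of fraction by culture (9). P-values were Benjamini-Hochberg adjusted over all genes, with calls below 0.05. The steps were tested on simulated data in which both fractions shifted alike in every culture, with only the spread between paired arrays. That test therefore cannot tell how well the fit finds such genes where cultures differ. Tables and plots used Python 3.11.15, numpy 2.4.6, pandas 2.3.3 and matplotlib 3.10.9.

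The text names Thbd, Itgax, Cd74 and Flt3 as checks, the rises and falls of largest size (5 each) among the calls of each contrast against unsorted DCs, genes called in both contrasts (up to 15 in each direction, where every sorted array lay on 1 side of the unsorted arrays), list members called in both, and the 4 genes with the smallest p of the fraction by culture test; genes chosen after their values were seen are named as such. The 30 gene lists (530 memberships, 53 without a cluster) and the arrays were chosen with earlier results of these data known. Alternatives were the study's model with experiment as a random term, a replicate block, averaged pairs, pairs as a random block, other scalings, filters, probe choices, weights and thresholds, separate unsorted arrays, and leaving out each array or culture. Whether equal replicate numbers pair the arrays is not settled: correlations of their deviations ranged from -0.36 to 0.45. Between unsorted and TM- arrays they were 0.45 in the untreated culture, 0.31 in the sTM culture of experiment 3 and 0.01 in experiment 2.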

Additional observations from a re-analysis of the deposited data

Results flagged for a closer look

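These results stand out because a test of the difference between cultures found the fractions' distance from unsorted DCs to vary; pairs of arrays are too small to look for single outlying arrays. By the F test of fraction by culture in limma, 3052 of the 19938 genes tested varied between the 3 cultures. The genes with the smallest p were Hp (haptoglobin), Itgb8, Susd2 and Mmp9 (a matrix protease).

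Between the sTM and the untreated culture of experiment 3, the difference of TM- from unsorted DCs was higher with sTM for 452 genes and lower for 148, and that of TM+ DCs was higher for 921 and lower for 594. Between the sTM cultures, the difference of TM- DCs was higher in experiment 3 than in experiment 2 for 680 genes and lower for 390, and that of TM+ DCs was higher for 637 and lower for 758. Each of these counts is out of 19938 genes. These tests share the unsorted arrays of each culture, and each culture is 1 pair of arrays a fraction.

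Among single genes of experiment 3, the difference of TM- from unsorted DCs (signed, TM- minus unsorted) was higher with sTM than without by 3.41 for Itgb8 and 4.32 for Il12b, and that of S100a8 was lower (-2.09). The difference of TM+ from unsorted DCs was higher with sTM by 4.67 for Susd2, which fell in the untreated culture, and by 3.55 for Ifit2 and 5.65 for Rsad2, and that of Mcpt2 was lower (-6.57), all on the log2 scale. The part of the sort or of the cells in these differences was not tested.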

How the results depend on the processing

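With each array left out in turn, TM- against unsorted DCs gave 5 to 140 called genes (17 in all arrays), TM+ against unsorted DCs 1219 to 1911, TM+ against TM- DCs 2644 to 3235, rises in both fractions over the cultures 0 to 7 and falls 0 to 2. Within experiment 2 there were 63 to 289 rises and 92 to 342 falls in both fractions, in the sTM culture of experiment 3 154 to 638 and 75 to 196, and in the untreated culture 0. The position by genes of TM+ and TM- DCs was 0.0774 to 0.111 and 0.502 to 0.558 in experiment 2, 0.0492 to 0.128 and 0.0458 to 0.139 in the untreated culture, and 0.262 to 0.479 and 0.958 to 1.05 in the sTM culture of experiment 3.

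Calls of TM- DCs numbered 38 with the study's model, 0 with averaged pairs, 11 with pairs as a random block, 1642 against the spread between paired arrays, 26 with shifted 75th percentiles, 3 with array weights, 5 and 2 with separate unsorted arrays, and 0, 739 and 1 without experiment 2, the untreated culture or the sTM culture of experiment 3. Calls of TM+ DCs numbered 207 with averaged pairs, 1051 with pairs as a random block, 3309 against the spread between paired arrays, 3359 with array weights, 1016, 1150 and 2049 without experiment 2, the untreated culture or the sTM culture of experiment 3, and 912 and 662 with separate unsorted arrays. TM+ against TM- DCs gave 741 with averaged pairs and 2491, 1924 and 3006 without the same cultures. Rises and falls in both fractions over the cultures were 157 and 60 against the spread between paired arrays and 108 and 30 without the untreated culture. The replicate block gave 5 calls for TM- DCs and 1272 for TM+ DCs. Whether the numbers pair the arrays is not settled, and the reason for the lower counts was not tested.

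Rises and falls in both fractions of experiment 2 were 94 and 335 with shifted 75th percentiles, 257 and 304 with quantile normalization, 40 and 57 with array weights, 43 and 60 without the untreated culture, 42 and 39 or 34 and 30 with separate unsorted arrays, 83 and 117 at 1.5-fold or more, and 18 and 15 fitted alone. Falls there were 96 without dim genes, and rises 254 without the sTM culture of experiment 3. For that culture the counts were 254 and 88 without the untreated culture, 238 and 72 or 147 and 62 with separate unsorted arrays, and 263 and 85 fitted alone. Its falls were 283 with shifted 75th percentiles, 285 with quantile normalization, 96 with array weights and 100 at 1.5-fold or more.

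The position in experiment 2 by genes of TM+ and TM- DCs was 0.203 and 0.455 as a slope, 0.204 and 0.454 as a cross-fitted slope, 0.123 and 0.432 on the log2 scale and 0.126 and 0.459 with quantile normalization. It was 0.601 by genes of TM- DCs at 3-fold or more and 0.0857 by genes of TM+ DCs without cell division and DNA replication genes. By genes of TM- DCs the sTM culture of experiment 3 was at 1.10, 1.28, 0.974 and 0.905 in the same 4 settings, 1.1245 at 3-fold or more and 0.526 between the untreated fractions. The untreated culture was at 0.120 by genes of TM+ DCs on the log2 scale.

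Of single genes over the cultures, 12 turned direction between TM+ and unsorted DCs with a call in the main fit or in the alternative. Over all single-gene contrasts and settings, 298 other values turned direction with no call in either. Rsad2 was at -0.80 with the study's model, Nfkbie at -0.68 with array weights and Tagap at -0.39 without experiment 2. Without the untreated culture Mcpt1 was at -1.46, Il6 at 1.49, Hdc at 0.99, Oasl1 at 0.81, Slfn10-ps at 0.56, Ube2l6 at 0.65 and Slfn4 at 0.74, and without the sTM culture of experiment 3 Il12b was at -1.75 and Stfa2 at 1.10. The cause of these shifts was not tested. Few arrays a group, the lack of detection calls and unsorted arrays shared between contrasts limit all of these results.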

Other observations

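Arrays outside the comparisons give the range of the genes named above. Rsad2 was 9.84 to 12.36 on the 4 unsorted sTM arrays of experiment 1, 11.64 to 12.44 on its 4 untreated arrays and 10.17 and 10.41 on the unsorted untreated arrays of experiment 2. In experiment 4 it was 10.37 to 11.19 in TM- DCs and 6.75 to 7.71 in TM+ DCs. Il12b of experiment 4 was 9.84 to 10.53 in TM- and 5.86 to 6.89 in TM+ DCs, and on unsorted arrays of experiment 1 it was 8.38 to 11.73. Both TM+ arrays of the sTM culture of experiment 3 lay above the TM+ range of experiment 4 for Rsad2 and Il12b. S100a8 of experiment 4 was 9.55 to 9.77 in TM- and 11.34 to 12.37 in TM+ DCs. Ccr2 on unsorted arrays of experiment 1 was 5.78 to 11.40, a range as wide as that between the fractions of experiment 4 (5.61 to 10.88).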
